A study of Homo sapiens with 6 samples.

Results

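The genes described here belong to the integrated stress response and the unfolded protein response. They were chosen by symbol from a list of 40, and 39 of them were measured among the 19775 genes of the arrays. SYVN1 was not analysed here, because its probe set also carries the symbol of another gene. The cells were K562, an established line from a human myeloid leukaemia, and the labels call the samples of a group biological replicates without saying whether cultures were separate, so p-values measure the spread between these samples. One group of 3 arrays held cells given 0.15 mM calactin, a cardenolide from plants, for 12 h, and the other held 3 arrays of untreated cells of the same time. The dose unit rests on the labels alone, and the untreated cells are labelled as having had no agent, with no vehicle named.

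In the integrated stress response, any of a family of kinases phosphorylates the initiation factor eIF2, which slows general translation while favouring that of ATF4. ATF4 then activates genes of amino acid supply, and a phosphatase subunit that it induces reverses the signal. In the unfolded protein response, the endoplasmic reticulum (ER) sensors PERK, IRE1 and ATF6 read misfolded protein. IRE1 splices the messenger RNA of XBP1, and XBP1 and ATF6 raise chaperones and the machinery that returns failed proteins to the cytosol for degradation (ERAD). The arrays measure messenger RNA levels, so neither phosphorylation nor splicing nor ATF6 cleavage is seen in these values.

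Median intensities per array were 31.17 to 32.06 for calactin and 33.12 to 34.41 for untreated cells, so every calactin array lay slightly lower. Of 8 erythroid genes listed to check the line, 6 were measured, with summed signals of 27060 to 30644 for calactin and 30460 to 31426 for untreated cells. HBE1, an embryonic globin, stood at 12112 to 14335 with calactin and 13087 to 14029 untreated. On the deposited scale the erythroid factor GATA1 fell by 0.86 and TFRC, the transferrin receptor, by 0.55, TAL1, another blood cell factor, rose by 0.92, and HBE1, KLF1 and EPOR were not called. The B cell markers MS4A1, CD79A and CD79B summed to 72 to 105 and 89 to 108 units. Summed T cell markers, nearly all CD3D, were 1748 to 1927 with calactin and 2240 to 2646 untreated. Epithelial markers, mostly EPCAM, summed to 2442 to 2687 and 2834 to 3164, and fibroblast markers, mostly COL1A1, to 904 to 1135 and 985 to 1218. CD3D (-0.45) and the fibroblast gene COL1A2 (-0.8) were called lower. Their part in the results was not tested.

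On the log2(intensity + 16) scale, limma called 8 of the 39 genes higher with calactin and 6 lower (Benjamini-Hochberg adjusted p under 0.05). Over all genes 4.93% were called higher and 16.5% lower. The members were bright, with a median signal percentile of 84.7. Fitted on the 12542 genes above the median signal, 12 members were called higher and 6 lower, where 9.14% and 28.6% of genes were. The members' median log2 fold change was 0.08, against -0.06 over all genes tested and -0.1 over those above the median signal. With all genes fitted, the 8 higher members were PPP1R15A, PPP1R15B, ASNS, CTH, ATF6, CALR, SEC61A1 and EDEM3. The 6 lower ones were EIF2AK1, EIF2AK4, XBP1, SDF2L1, PDIA4 and MANF. The log2 values of the 39 ran from -0.77 for MANF to 0.90 for CTH.

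Replicate numbers were taken to pair the arrays, but the main fit had no block. With the number as a block 13 members were called higher and 6 lower, where 7.09% and 20.2% of all genes were. The 5 added genes were CHAC1, STC2, HERPUD1, DERL1 and DERL2. Scaling to the poly-A spikes, control RNAs added before labelling, was run together with the replicate block, and both choices enter its counts. It gave 25 members higher and 0 lower by limma (0 also at an unadjusted p under 0.05), where 35.4% and 5.56% of all genes were called. That setting had a median of 0.32 over all genes on the log2 scale and of 0.41 over genes above the median signal. The mean log2 level of these spikes was 6.382 in calactin replicate 3 and 6.813 in untreated replicate 3, against 9.793 and 10.148 in the other calactin arrays and 10.341 and 10.889 in the other untreated arrays. For that reason the spikes were equalised within each replicate number. Quantile normalisation gave 15 members higher and 4 lower, where 8.39% and 12.1% of all genes were, and hybridisation spike scaling 4 and 1, where 2.98% and 7.47% were. With probe sets averaged per gene, 5 and 3 members were called (4.03% and 14.4% of all genes), with unshared probe sets 6 and 3 (4.53% and 15%), and with replicates 1 and 2 alone 1 and 1 (1.68% and 7.09%). Of the 14 calls, 7 held whichever array was left out: PPP1R15A, XBP1, ATF6, SDF2L1, PDIA4, MANF and EDEM3. Leaving out 1 array at a time gave 4 to 9 members higher and 4 to 6 lower, where 3.26% to 5.13% and 12.1% to 15.3% of all genes were called.

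**Figure D1:**
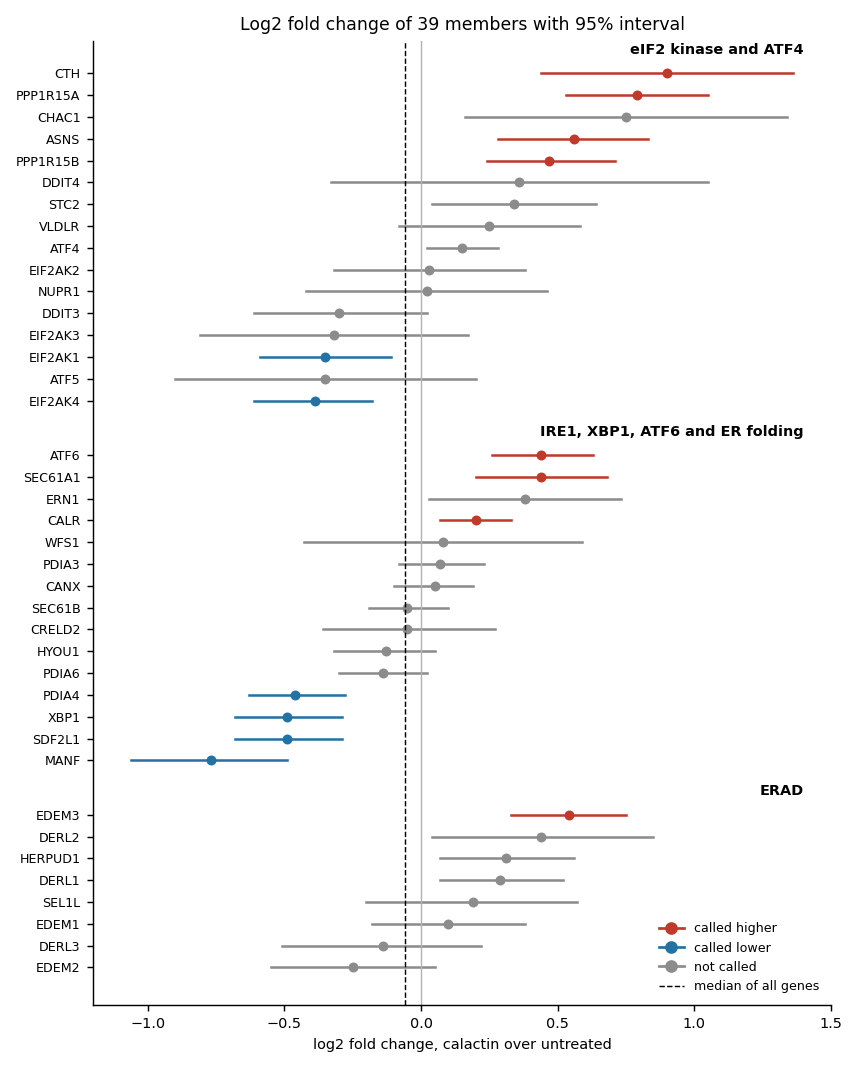
Log2 fold change of calactin over untreated arrays for 39 genes in 3 arms (points), with 95% intervals from limma (bars; 3 arrays a group). The largest rise was that of CTH at 0.90 and the largest fall that of MANF at -0.77. The called falls other than MANF turned positive under poly-A spike scaling, but stayed below the 0.32 of all genes in that setting.

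The 16 genes of the eIF2 kinase and ATF4 arm held 4 called higher, 2 called lower and 10 not called. Their median was 0.20 on the log2 scale. Of all genes 4.93% were called higher and 16.5% lower. In the fit of genes above the median signal the shares were 9.14% and 28.6%. Of 4 kinases 2 fell, both of the 2 phosphatase subunits rose, and of 7 targets ASNS and CTH rose; these counts are a description.

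Among the 4 eIF2 kinases, EIF2AK4, or GCN2, senses uncharged transfer RNA. Its signals were 526.7, 468.7 and 507.4 with calactin and 659.7, 637.2 and 692.3 in untreated arrays. The groups did not overlap, as for 24.4% of all genes in that direction, and EIF2AK4 fell by 0.39 ± 0.09 on the log2 scale (SE; adjusted p = 0.0157). EIF2AK1, the haem-regulated kinase HRI that matches globin synthesis to haem in red cell precursors, had 2673, 3430 and 2913 units with calactin and 3479, 4156 and 3837 untreated. These groups did not overlap either, since the highest calactin array lay just under the lowest untreated one, and EIF2AK1 fell by 0.35 ± 0.10 (adjusted p = 0.0442). Its other probe set went the other way, with 314.8, 412.6 and 323.2 units with calactin against 262.6, 263 and 263.9 untreated, a log2 difference of 0.38 ± 0.12 that was not called (adjusted p = 0.0833 over all probe sets).

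Both kinase falls depended on single arrays and on scaling. Under poly-A spike scaling EIF2AK1 stood at 0.22 and EIF2AK4 at 0.16, each below the 0.32 of all genes. EIF2AK1 was no longer called once calactin replicate 1 or 3 or untreated replicate 2 or 3 was dropped (adjusted p = 0.129 to 0.146), and that of EIF2AK4 without calactin replicate 2 or 3 or untreated replicate 3 (0.0512 to 0.0633). EIF2AK3, the ER kinase PERK, was not called at -0.32 ± 0.22, with a 95% interval of -0.81 to 0.17. Its untreated values were 252.8, 490.1 and 291.4, against 249, 264.9 and 271.2 with calactin, so that its mean difference came mostly from untreated replicate 2; without that array it was -0.05. EIF2AK2, the kinase PKR activated by double-stranded RNA, was at 0.03 ± 0.15, with an interval of -0.32 to 0.38. Its other probe sets were lower, neither of them called: 1 had 374.2, 295.1 and 319.1 units with calactin against 506.7, 376.1 and 501.4 untreated (log2 -0.46 ± 0.14, adjusted p = 0.0739 over all probe sets), and a dim set was at -0.32 ± 0.18. The EIF2AK2 direction is not settled by these arrays.

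The eIF2 phosphatase subunits both rose. PPP1R15A, or GADD34, is the stress-induced subunit that brings protein phosphatase 1 to eIF2, and it had 1674, 1858 and 1654 units with calactin against 1012, 1133 and 845.7 untreated. Every calactin array lay well above every untreated one, by a mean of 1.73-fold (log2 0.79 ± 0.11, adjusted p = 0.0013). Both of its probe sets were called higher, the other at 0.83 ± 0.13, and the call held under all 19 alternatives, the only member of which this was true. PPP1R15B, the constitutive subunit CReP, had 1808, 1847 and 1891 units with calactin and 1158, 1531 and 1321 untreated. Its calactin arrays were tight, its untreated ones spread, and it rose 1.39-fold (log2 0.47 ± 0.10, adjusted p = 0.0113; 0.0512 without calactin replicate 3).

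The 3 transcription factors of the arm were not called. ATF4 had 6930, 7249 and 7224 units with calactin and 6136, 6435 and 6665 untreated. The groups did not overlap, as for 10.3% of all genes in that direction, but the difference was small at 0.15 ± 0.06 (adjusted p = 0.0977). DDIT3, the pro-death factor CHOP, had 928.7, 706.4 and 1058 units with calactin and 1058, 1125 and 1095 untreated, a difference of -0.30 ± 0.14 (adjusted p = 0.186, interval -0.61 to 0.02). The upper bound of that interval is close to 0, so a rise of DDIT3 like that of PPP1R15A lies outside it on the deposited scale; on the poly-A spike scale DDIT3 stood at 0.27, under the 0.32 of all genes. ATF5, which like ATF4 is translated more when eIF2 is phosphorylated, was at -0.35 ± 0.24, with 647.9 units in untreated replicate 2 against 412.6 and 290.4 in the other untreated arrays; calactin arrays held 323.5, 345.5 and 327.1.

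Among the targets, 2 enzymes of amino acid supply were called. CTH, which makes cysteine by transsulfuration, had 1950, 2098 and 2220 units with calactin and 843, 1604 and 1016 untreated. Untreated replicate 2 was the nearest to the calactin range but did not reach it, and CTH rose 1.86-fold (log2 0.90 ± 0.20, adjusted p = 0.0123). Both CTH probe sets were called, the other at 1.02 ± 0.20. ASNS, asparagine synthetase, had 9177, 9610 and 8007 units with calactin and 5236, 7284 and 5809 untreated, and rose 1.47-fold (log2 0.56 ± 0.12, adjusted p = 0.0105). CTH was no longer called if calactin replicate 2 or 3 or untreated replicate 3 was dropped (adjusted p = 0.0508 to 0.0672), and the ASNS call without calactin replicate 2 or untreated replicate 3 (0.0543 to 0.0559). A second ASNS probe set was dim, at 4.55 to 11.87 units with calactin and 10.32 to 28.2 untreated, and was not called.

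CHAC1, which degrades glutathione and is a sensitive target of ATF4, had 727.5, 563.2 and 1020 units with calactin against 526.7, 299.3 and 531.7 untreated. The calactin arrays were all higher but scattered, and the difference of 0.75 ± 0.26 was not called (adjusted p = 0.0757). Within replicate numbers 1, 2 and 3 the CHAC1 differences were 0.45, 0.88 and 0.92, and the blocked fit called it (0.75 ± 0.11, adjusted p = 0.00172). STC2, a secreted glycoprotein, behaved alike at 0.34 ± 0.13 without the block (adjusted p = 0.112) and with an adjusted p of 0.03 in the blocked fit. DDIT4, or REDD1, which restrains mTORC1, had 7786, 6228 and 7117 units with calactin and 7417, 3025 and 7282 untreated. The low array was untreated replicate 2, and the DDIT4 difference of 0.36 ± 0.30 (adjusted p = 0.504) became -0.07 without it. NUPR1, a small stress-induced chromatin protein, stood at 31.02 to 54.37 units with calactin and 38.25 to 47.13 untreated, and VLDLR, a lipoprotein receptor, at 9.88 to 15.62 and 6.52 to 8.89, close to or under the array medians of 31.17 to 34.41. At such signals changes of these genes could hardly be seen.

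The promoters of this arm are shown because ATF4 acts with C/EBP partners at a composite site, the CARE. RefSeq windows (GRCh38.p14) from 250 bases before to 50 after the start were at hand for 35 of the 40 genes. The letters TGATGNAA, sought on both strands, were found in 3.67% of 27305 such windows and in those of PPP1R15B, CHAC1, ASNS and HERPUD1 among the members. Below, each window runs 5′ to 3′ on the strand of the gene, with the fixed letters of the match in capitals.
PPP1R15B, chr1:204411768-204412067, minus strand: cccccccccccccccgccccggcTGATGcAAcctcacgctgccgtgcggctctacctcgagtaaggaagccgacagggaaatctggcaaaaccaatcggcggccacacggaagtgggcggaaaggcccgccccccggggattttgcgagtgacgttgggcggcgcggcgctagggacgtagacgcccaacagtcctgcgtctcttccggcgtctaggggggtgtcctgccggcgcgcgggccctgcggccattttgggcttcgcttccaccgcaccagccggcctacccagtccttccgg
ASNS, chr7:97872359-97872658, minus strand: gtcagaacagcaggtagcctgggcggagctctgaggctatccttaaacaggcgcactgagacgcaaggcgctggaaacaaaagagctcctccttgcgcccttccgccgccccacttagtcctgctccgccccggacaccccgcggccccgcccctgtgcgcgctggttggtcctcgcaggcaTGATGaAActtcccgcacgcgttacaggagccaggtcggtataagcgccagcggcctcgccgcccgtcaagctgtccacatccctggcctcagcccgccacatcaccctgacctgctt
CHAC1, chr15:40953221-40953520, plus strand: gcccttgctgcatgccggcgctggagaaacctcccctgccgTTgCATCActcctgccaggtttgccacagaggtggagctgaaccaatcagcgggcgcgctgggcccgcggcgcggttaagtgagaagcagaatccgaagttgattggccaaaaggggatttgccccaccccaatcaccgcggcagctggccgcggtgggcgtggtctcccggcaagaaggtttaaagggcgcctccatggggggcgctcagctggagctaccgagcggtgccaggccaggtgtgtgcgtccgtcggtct
The match begins at base 183 of the ASNS window, at base 24 in PPP1R15B and at base 42 in CHAC1, where it lies on the opposite strand. PPP1R15B and ASNS were called higher, and CHAC1 and HERPUD1 were positive but not called without the block. Over all 403 measured genes with this match, 14 were called higher and 37 lower, or 3.47% and 9.18%, against 5.28% and 17.6% of the 15384 measured genes with a window. The windows of PPP1R15A and CTH do not hold these letters.

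**Figure D2:**
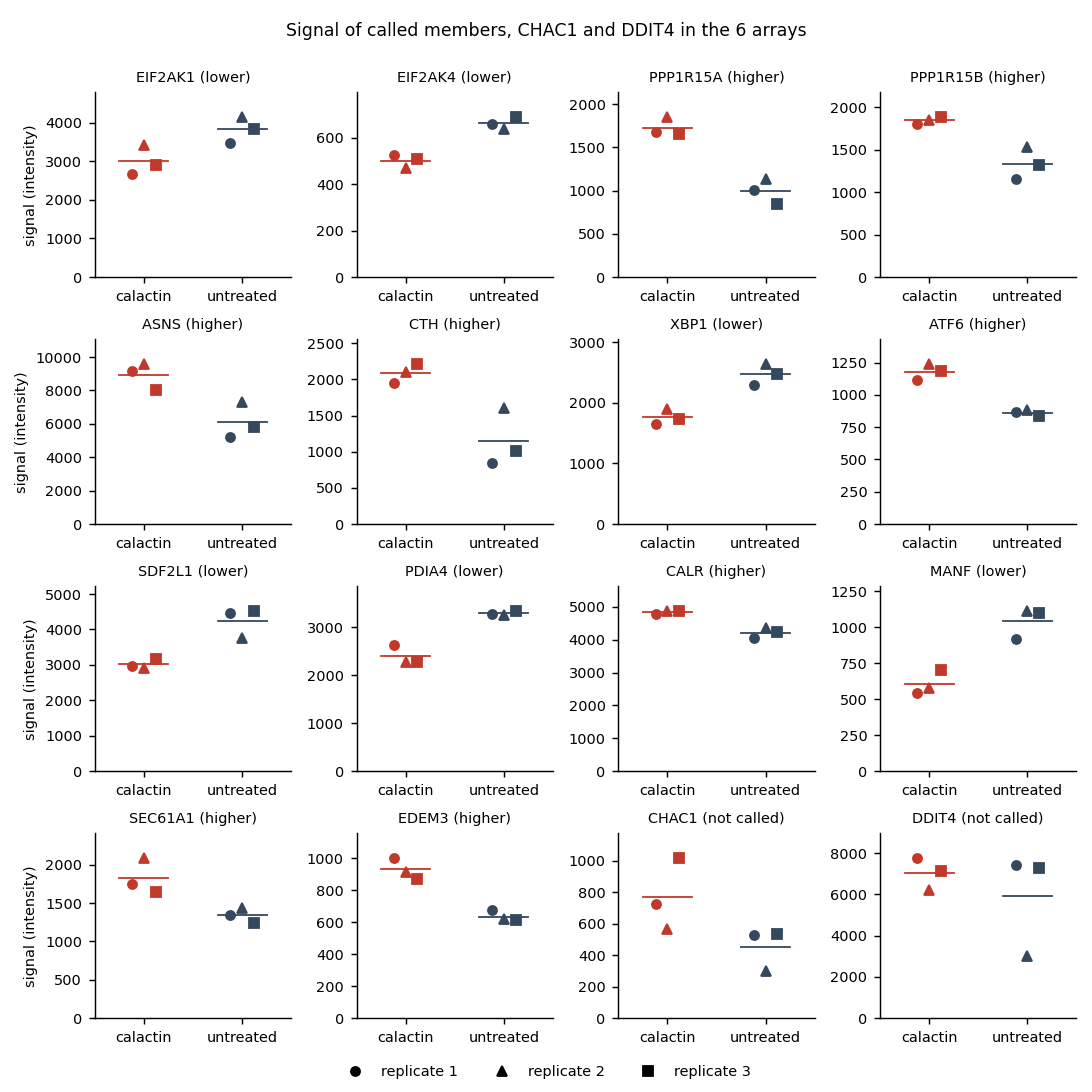
Signal in linear intensity units (vertical axis, from 0) of the 14 called members, CHAC1 and DDIT4 in the calactin and the untreated arrays; shapes give the replicate number and lines the group mean. The groups do not overlap for any called gene, nor do they for 34.7% of all genes. CHAC1 is higher but scattered with calactin, and untreated replicate 2 is the low array of DDIT4.

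The 15 genes of IRE1, XBP1, ATF6, ER folding and translocation held 3 called higher, 4 called lower and 8 not called, with a median of -0.05. Of all genes 4.93% were called higher and 16.5% lower. In the fit of genes above the median signal the shares were 9.14% and 28.6%. The 2 transcription factors of this arm were called in opposite directions. XBP1, whose spliced form drives ER expansion, had 1651, 1899 and 1734 units with calactin against 2297, 2646 and 2473 untreated. The groups were well apart, XBP1 fell by 0.49 ± 0.08 (adjusted p = 0.00346), and the differences within numbers 1, 2 and 3 were -0.47, -0.48 and -0.51. XBP1 was not called with replicates 1 and 2 alone or with the mean of its 2 probe sets. The second set was dim and stood at 0.02 ± 0.18. ATF6, a sensor cut in the Golgi to release a transcription factor, had 1112, 1242 and 1184 units with calactin and 867.3, 883.7 and 837.6 untreated. It rose 1.36-fold (log2 0.44 ± 0.08, adjusted p = 0.00454), again with no overlap, as for 10.3% of all genes in that direction.

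Of the 4 ATF6 probe sets, 1 was called; the others were at 0.10 ± 0.09, 0.27 ± 0.10 and 0.23 ± 0.21, and with the mean of all 4 the value was 0.26 and not called. ERN1, which encodes IRE1, was at 0.38 ± 0.15 and was not called (adjusted p = 0.133). A dimmer ERN1 probe set was called lower, at 71.82, 46.57 and 81.42 units with calactin against 108.5, 119 and 126.6 untreated (log2 -0.72 ± 0.19, adjusted p = 0.0384 over all probe sets), and the remaining set was at 0.12 ± 0.17. The direction for ERN1 is therefore not settled by these arrays.

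Among 10 genes of ER folding, 3 fell, 1 rose and 6 were not called. They were bright, with a median signal percentile of 95.8. Of all genes 16.5% were called lower and 4.93% higher. In the fit of genes above the median signal the shares were 28.6% and 9.14%. MANF, a small secreted protein that binds the chaperone BiP, had 538.6, 576.5 and 701.1 units with calactin against 918.2, 1115 and 1098 untreated. This was the widest gap among the members that fell, 1.71-fold (log2 -0.77 ± 0.12, adjusted p = 0.00232). SDF2L1, a partner of ER J-domain proteins, had 2956, 2922 and 3174 units with calactin and 4458, 3755 and 4534 untreated, and fell by 0.49 ± 0.09 (adjusted p = 0.00359). PDIA4, a disulfide isomerase, had 2634, 2280 and 2283 units with calactin and 3273, 3259 and 3347 untreated, and fell by 0.46 ± 0.08 (adjusted p = 0.00273).

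On the probe sets kept, MANF, SDF2L1 and PDIA4 did not overlap between the groups, as for 24.4% of all genes in that direction. The second PDIA4 probe set did overlap, at 510.7, 369.7 and 458.8 units with calactin against 616.1, 482 and 614 untreated. It was not called by limma (log2 -0.35 ± 0.15, adjusted p = 0.186 over all probe sets). On the poly-A spike scale XBP1 stood at 0.08, SDF2L1 at 0.08 and PDIA4 at 0.11, where MANF kept its sign at -0.21 and the median of all genes was 0.32. Relative to the median of all genes, XBP1, SDF2L1, PDIA4 and MANF were lower under each of the scalings tried. Scaled to the hybridisation spikes, only MANF of the members stayed called lower. CALR, the lectin chaperone calreticulin, was the exception among folding genes, at 4778, 4889 and 4863 units with calactin and 4063, 4342 and 4231 untreated. The CALR rise was small, 0.20 ± 0.06 (adjusted p = 0.0371), and its call was lost without any of the calactin arrays or without untreated replicate 1 or 3 (0.0734 to 0.117). Its membrane-bound relative CANX, calnexin, was at 0.05 ± 0.06, with an interval of -0.10 to 0.19.

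The remaining folding genes moved little. PDIA3 and PDIA6, isomerases of glycoproteins and of other clients, were at 0.07 ± 0.07 and -0.14 ± 0.07, and the 4 PDIA6 probe sets lay between -0.12 and -0.17. HYOU1, an exchange factor for BiP, was at -0.13 ± 0.08 and CRELD2, a stress-induced folding factor, at -0.05 ± 0.14. For PDIA3, PDIA6, CANX and HYOU1 the intervals bound any change at 0.32 log2 units in either direction on the deposited scale. WFS1, an ER membrane protein lost in Wolfram syndrome, was dim, at 24.86 to 49.31 units with calactin and 25.83 to 44.77 untreated.

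Of 2 genes of the translocon channel, 1 was called higher and 1 was not called. SEC61A1, its pore subunit, had 1752, 2096 and 1644 units with calactin and 1349, 1434 and 1241 untreated, and rose 1.36-fold (log2 0.44 ± 0.11, adjusted p = 0.0172). It was no longer called if calactin replicate 2 or untreated replicate 1 or 3 was dropped (adjusted p = 0.0512 to 0.0756), and the other SEC61A1 probe set was at 0.24 ± 0.19. SEC61B, a small subunit of the same channel, was at -0.05 ± 0.06.

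Promoters of this arm are shown for the ER stress response elements that ATF6 and XBP1 bind. The ERSE, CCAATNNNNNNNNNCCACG, occurred in 22 of 27305 windows, or 0.0806%, and in 4 of the members: XBP1, CALR, CANX and CRELD2. The ERSE-II, which is ATTGG and CCACG with 1 base between, occurred in 15 windows, or 0.0549%, and in SDF2L1, HYOU1 and HERPUD1. The core TGACGTG of another element, the UPRE, occurred in 2.0% of windows and among members in HYOU1 alone. All were sought on both strands; in HERPUD1 the ERSE-II and CARE matches do not overlap. The capitals mark the fixed letters in 3 of these windows.
XBP1, chr22:28800520-28800819, minus strand: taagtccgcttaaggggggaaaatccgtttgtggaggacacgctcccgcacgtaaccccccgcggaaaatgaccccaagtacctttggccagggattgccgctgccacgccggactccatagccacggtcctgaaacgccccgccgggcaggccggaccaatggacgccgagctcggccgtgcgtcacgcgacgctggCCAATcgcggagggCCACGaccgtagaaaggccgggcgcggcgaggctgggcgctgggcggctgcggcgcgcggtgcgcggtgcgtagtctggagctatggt
SDF2L1, chr22:21642052-21642351, plus strand: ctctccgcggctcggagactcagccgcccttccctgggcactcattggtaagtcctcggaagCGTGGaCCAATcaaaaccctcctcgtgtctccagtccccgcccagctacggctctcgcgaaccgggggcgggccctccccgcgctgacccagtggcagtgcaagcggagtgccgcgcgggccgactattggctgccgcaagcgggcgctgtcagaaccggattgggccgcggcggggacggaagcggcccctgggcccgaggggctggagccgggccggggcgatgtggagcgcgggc
HERPUD1, chr16:56931892-56932191, plus strand: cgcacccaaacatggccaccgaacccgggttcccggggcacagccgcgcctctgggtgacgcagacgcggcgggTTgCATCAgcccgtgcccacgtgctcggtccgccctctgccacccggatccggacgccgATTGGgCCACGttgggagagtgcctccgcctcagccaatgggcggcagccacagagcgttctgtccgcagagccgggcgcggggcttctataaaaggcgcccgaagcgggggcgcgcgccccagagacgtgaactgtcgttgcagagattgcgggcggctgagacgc
The 7 members with an ERSE or ERSE-II did not share a direction. XBP1 and SDF2L1 fell, CALR rose, and CANX, CRELD2, HYOU1 and HERPUD1 were not called. Of the 24 other measured genes with either element, 1 was called higher and 4 lower, or 4.17% and 16.7%. These shares lie near the 5.24% and 17.6% of all other measured genes with a window.

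Without the block, the 8 measured ERAD genes held 1 called higher by limma, 0 called lower (0 also at an unadjusted p under 0.05) and 7 not called. Their median was 0.24. Of all genes 4.93% were called higher and 16.5% lower. EDEM3, a mannosidase that marks glycoproteins for removal, had 1004, 914.6 and 872.2 units with calactin against 674.9, 618.5 and 610.2 untreated. It rose 1.45-fold (log2 0.54 ± 0.09, adjusted p = 0.00328) with no overlap, as for 10.3% of all genes in that direction. The differences within the 3 replicate numbers were 0.56, 0.55 and 0.50. All 3 EDEM3 probe sets were called higher, the others at 0.90 ± 0.10 and 0.65 ± 0.11. Its relatives were not called: EDEM1 was at 0.10 ± 0.12 and EDEM2 at -0.25 ± 0.13.

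Of the other genes of the retrotranslocation complex, none was called without the block. HERPUD1, which scaffolds the complex at the ER membrane, had 2488, 1982 and 2542 units with calactin and 1724, 1920 and 1966 untreated. Calactin replicate 2 nearly reached the untreated range, and the difference was 0.31 ± 0.11 (adjusted p = 0.0748; 0.0437 with the block). DERL1, a derlin of the export channel, had 1335, 1634 and 1547 units with calactin and 1131, 1277 and 1256 untreated, a difference of 0.29 ± 0.10 (adjusted p = 0.0662; 0.00903 with the block), and its 3 other probe sets were at 0.28, 0.31 and 0.39. DERL2 was at 0.44 ± 0.18 (adjusted p = 0.124; 0.00925 with the block), but its second probe set was at -0.20 ± 0.15. SEL1L, the partner of the ubiquitin ligase, was at 0.19 ± 0.17 and was not called with the block either; its 3 other probe sets were at 0.09, -0.18 and -0.20. DERL3 was at -0.14 ± 0.16 and was dim, at 52.67 to 71.09 units with calactin and 63.96 to 72.69 untreated.

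**Figure D3:**
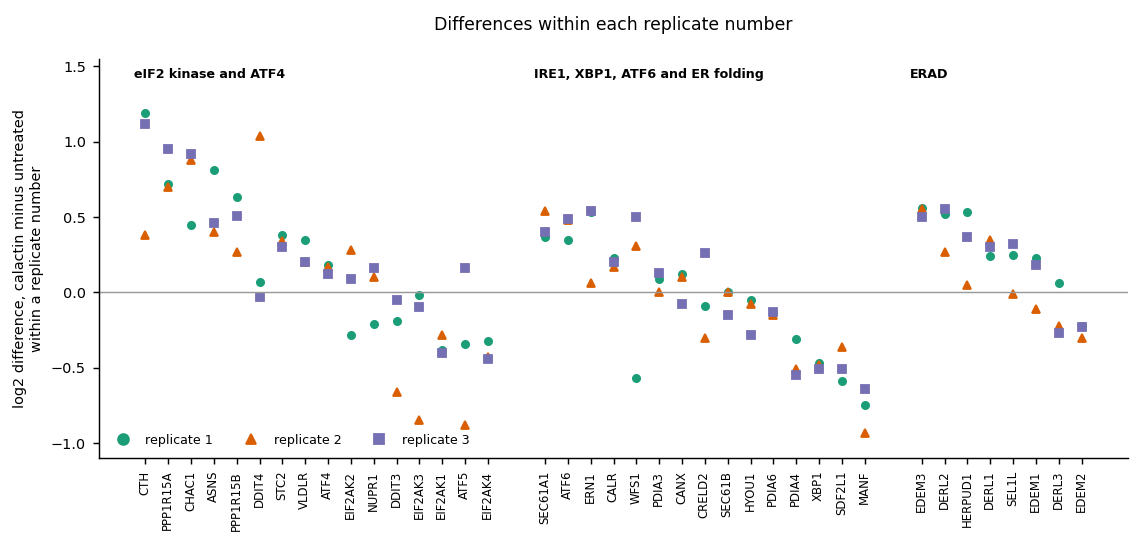
Log2 difference of calactin minus untreated arrays within each replicate number (shapes and colours) for 39 genes, ordered by fold change within each arm. XBP1, EDEM3 and PDIA6 show nearly the same difference in each number, while DDIT4, ATF5 and EIF2AK3 stand apart in replicate 2.

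Side by side, the medians were 0.20 for the eIF2 kinase and ATF4 genes, -0.05 for IRE1, XBP1, ATF6 and folding genes and 0.24 for ERAD genes. The differences between arms were not tested. In quantile-normalised data the folding median was 0.11, and on the poly-A spike scale the 3 medians were 0.66, 0.51 and 0.80. With probe sets averaged per gene the ERAD median was 0.04. Of the 39 genes, 26 had more than 1 probe set; over the 84 member probe sets 11 were called higher and 6 lower, where 3.68% and 10.3% of all probe sets were. For 0 genes were probe sets called in opposite directions.

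Untreated replicate 2 was the array that stood apart most often among these genes. It differed by over 0.5 log2 units from the mean of the other 2 untreated arrays for 7 of the 39, higher for EIF2AK3, ATF5, CTH, SEL1L and DERL2 and lower for DDIT4 and CHAC1. Over the 12542 genes above the median signal that array was higher by that measure for 5% and lower for 4.66%, more than for any other array. The other arrays differed so for 1 to 3 of the 39.

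Beyond the members, 39 further targets of ATF4 had been listed and measured, of which 12 were called higher and 5 lower, with a median of 0.26. Over all genes 4.93% were called higher and 16.5% lower, and 9.14% and 28.6% in the fit of genes above the median signal. SLC3A2, the heavy chain of amino acid exchangers, had 4885, 4954 and 4151 units with calactin and 2535, 2872 and 2248 untreated (log2 0.87 ± 0.11). KLHL24 rose by 0.95 ± 0.11 and SLC38A2, a transporter of neutral amino acids, by 0.56 ± 0.07. LARS1, the leucyl-transfer RNA synthetase, fell by 0.80 ± 0.10. Chosen after their values were seen, TRIB3, a pseudokinase that ATF4 and CHOP induce, fell by 0.66 ± 0.13, with 1907, 2008 and 1851 units with calactin against 2728, 3853 and 2687 untreated, and ATF3, another target, was at 0.08 ± 0.11. TRIB3 was not called under hybridisation spike scaling, poly-A spike scaling with the block, or replicates 1 and 2 alone. Its log2 values ran from -0.75 to -0.09 over the alternatives. The other rises were SLC6A9, SLC7A11, SLC7A5, PHGDH, PSAT1, GDF15, SESN2, AARS1 and YARS1, and the other falls GADD45A, EPRS1 and NARS1. The transporters and serine enzymes SLC6A9, SLC7A11, SLC7A5, PHGDH and PSAT1 are genes of amino acid supply. Other transporters and serine enzymes of the list were not called: PSPH (0.29), SLC1A4 (0.42), SLC1A5 (0.49), SHMT2 (-0.26) and SLC7A1 (-0.2).

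Of 21 genes of eIF2, its exchange factor eIF2B and their partners, 9 fell and 1 rose (median -0.18). Over all genes 16.5% were called lower and 4.93% higher, and 28.6% and 9.14% in the fit of genes above the median signal. EIF5, which triggers the GTP hydrolysis of eIF2, had 619.8, 976.6 and 726.8 units with calactin and 2156, 2704 and 2325 untreated, and fell by 1.63 ± 0.16. EIF2B1, a regulatory subunit of eIF2B, fell by 0.81 ± 0.08, and EIF2A, a separate initiation factor, by 0.77 ± 0.09. EIF2S3, the gamma subunit of eIF2, fell by 0.54 ± 0.07 and stood at 0.03 on the poly-A spike scale. Chosen after their values were seen, EIF2B3 fell by 0.90 ± 0.13 and IMPACT, an inhibitor of GCN2, by 1.35 ± 0.19. EIF2B1, EIF2A and EIF2B3 kept their negative sign under every alternative.

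Of 41 further genes of ER folding and secretion, 6 rose and 7 fell (median -0.11), where 4.93% and 16.5% of all genes did. In the fit of genes above the median signal 9.14% and 28.6% did. SEC24D, a cargo adaptor of COPII vesicles, had 144.6, 178.4 and 270.2 units with calactin and 591.3, 835.2 and 652.9 untreated, and fell by 1.76 ± 0.22. SEC31A, of the same coat, fell by 0.56 ± 0.07 (0.01 on the poly-A spike scale), while FKBP14, a prolyl isomerase, rose by 0.83 ± 0.13 and ERP29 by 0.43 ± 0.07. Chosen after their values were seen, HSPA5, the chaperone BiP that holds the sensors inactive, had 5619, 5725 and 5844 units with calactin against 6541, 7728 and 6964 untreated. HSPA5 fell by 0.30 ± 0.07 and was not called without calactin replicate 1 or 2 (adjusted p = 0.0576 to 0.0577). On the poly-A spike scale HSPA5 stood at 0.27, under the 0.32 of all genes. HSP90B1, the HSPA5 partner GRP94, was chosen likewise and was at -0.29 ± 0.11 (adjusted p = 0.0942). DNAJB9, a J-domain target of XBP1 also chosen likewise, rose by 0.41 ± 0.09. DNAJB9 was not called without calactin replicate 1 or 2 (adjusted p = 0.0551 to 0.0571).

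Of 28 further ERAD genes, 4 rose and 6 fell (median -0.04), where 4.93% and 16.5% of all genes did. In the fit of genes above the median signal 9.14% and 28.6% did. NGLY1, which strips glycans from exported proteins, had 934.4, 1075 and 1078 units with calactin and 2851, 2859 and 3236 untreated, and fell by 1.52 ± 0.09, although its other probe set was at 0.04. UBXN4, which tethers the VCP segregase to the ER, fell by 0.86 ± 0.08, MAN1A2, a mannosidase, fell by 0.65 ± 0.13, and YOD1, a deubiquitinase, rose by 0.44 ± 0.09. With the mean of its probe sets MAN1A2 was at 0.07. Of 16 further sensors and partners, 2 rose and 7 fell (median -0.21), against the same shares of all genes, 4.93% and 16.5%. For genes above the median signal the shares were again 9.14% and 28.6%. CREB3L1 and CREB3L4, membrane-bound factors related to ATF6, had log2 values of -1.37 ± 0.15 and -1.42 ± 0.16, and MAP3K5, a kinase downstream of IRE1, fell by 1.22 ± 0.12. TNFRSF10B, a death receptor that CHOP can induce, fell by 1.11 ± 0.13.

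**Figure D4:**
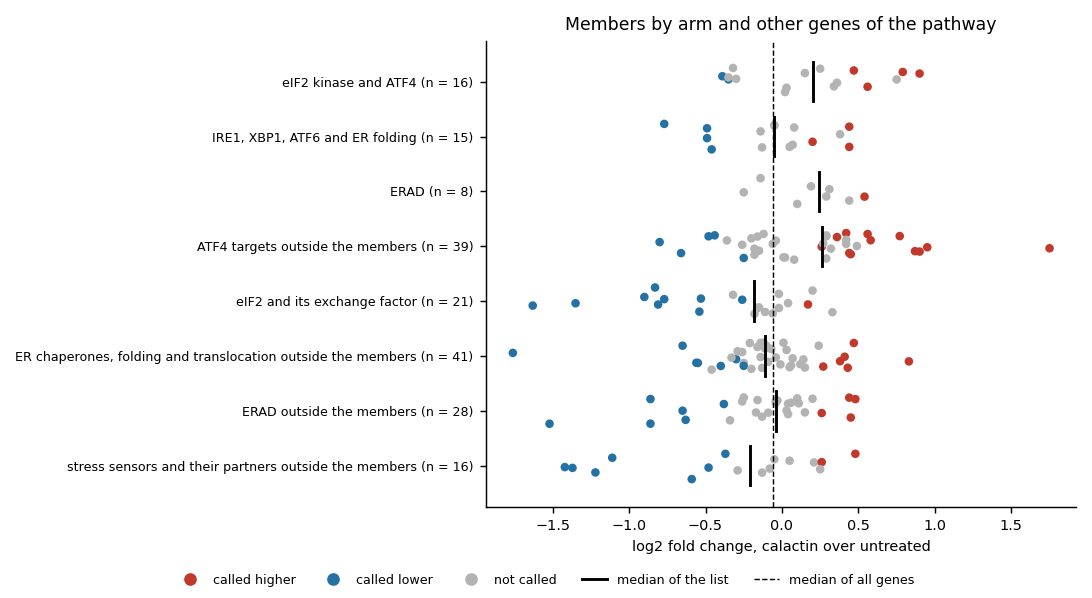
Log2 fold change of calactin over untreated arrays for the members in 3 arms and for 5 lists of other pathway genes (points; 1 probe set a gene), with list medians (bars) and the median of all genes, -0.06 (dashed). The lowest value is that of SEC24D at -1.76 in the list of ER folding and secretion; on the poly-A spike scale the median of all genes was 0.32.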

How the data were processed

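Messenger RNA of K562 cells was measured on 6 one-colour Affymetrix arrays, 3 of calactin-treated and 3 of untreated cells, with labelled cRNA. The authors deposited a linear intensity for each probe set, judged from the range of the values. How they were summarised and normalised is not given in the sources used here. Probe sets were named from the platform annotation: of 54675, 62 were controls, 41091 had 1 symbol, 1801 several and 11721 none. Per gene the probe set with the highest mean log2 signal was kept, which left 19775 genes. Values were taken as log2(intensity + 16) and tested with limma 3.58.1 in R 4.3.3 (lmFit, eBayes with a trend) without a block; p-values were adjusted by Benjamini-Hochberg over all genes, with a threshold of 0.05. Fold changes on this scale understate changes of dim genes. Precision is limited by having 6 arrays.

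The replicate numbers in the titles were checked over the 12542 genes above the median signal. Deviations from the group means of same-numbered arrays correlated at 0.447, 0.337 and 0.226, so the numbers were taken to pair the arrays. The 19 alternatives cover scaling, pseudocount, filter, probe set choice, eBayes settings, the block and leaving out arrays. The fit was tested on simulated data. Every member is accounted for. Called genes and those near the threshold are given array by array. Up to 4 genes with the smallest p were to be named in each other list. Genes said to be chosen after their values were seen were added to these. So were the other called genes of the ATF4 target list and some of its genes that were not called. The members and lists were chosen with earlier results of these data known. Promoter windows come from RefSeq (GRCh38.p14), and figures were drawn with matplotlib 3.10.9.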

Additional observations from a re-analysis of the deposited data

How the results depend on the processing

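Against 8 members called higher and 6 lower, hybridisation spike scaling gave 4 and 1, poly-A spike scaling with the replicate block 25 and 0, averaged probe sets 5 and 3, and replicates 1 and 2 alone 1 and 1. Quantile normalisation gave 15 higher, unshared probe sets gave 3 lower, and leaving out an array gave 4 to 9 higher and 4 to 6 lower (3.26% to 5.13% and 12.1% to 15.3% of all genes). The replicate block gave 13 higher, adding CHAC1, STC2, HERPUD1, DERL1 and DERL2. The median of the eIF2 kinase and ATF4 genes was 0.66 under poly-A spike scaling (0.10 to 0.21 without an array), that of the folding genes 0.11 under quantile normalisation and 0.51 under poly-A spike scaling (-0.09 to 0.01 without an array), and that of ERAD genes 0.80 under poly-A spike scaling and 0.04 with the mean of probe sets (0.16 to 0.33 without an array). The sign turned under poly-A spike scaling for EIF2AK1 (0.22), EIF2AK4 (0.16), XBP1 (0.08), SDF2L1 (0.08), PDIA4 (0.11), EIF2S3 (0.03), SEC31A (0.01) and HSPA5 (0.27). That scaling multiplies all genes of an array by the same factor, and each of these values lay below its all-gene median of 0.32. With the mean of probe sets the sign turned for EIF2AK1 (0.02) and MAN1A2 (0.07). With unshared probe sets it turned for NGLY1 (0.04) and for ASNS (-0.53), read there from its dim probe set. Which scaling or probe set is nearer to the cells was not tested. Over all genes the share of calls that were lower was 77% as deposited, 59.1% after quantile normalisation, 67% after median centring, 71.5% with hybridisation spikes and 13.6% with poly-A spikes and the block.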
